A study of Saccharomyces cerevisiae with 4 samples.

Results

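Hsp70 chaperones and their exchange factors in the endoplasmic reticulum (ER) and in the cytosol were followed through 5 genes of budding yeast. KAR2 (YJL034W), LHS1 (YKL073W) and SIL1 (YOL031C) act in the ER, and SSA3 (YBL075C) and FES1 (YBR101C) act in the cytosol. They were chosen by gene symbol from 3099 named genes with values, and each is represented by 1 probe. The arrays compared 2 transformants of Saccharomyces cerevisiae W303-1A, one making CadA, a P-type ATPase of Listeria monocytogenes, and one making its D398A mutant, which served as the control. Both were grown at 30 °C in minimal medium with all amino acids and adenine to an OD600 of 0.4, and both were then given 1 µM cadmium for 1 h. No group without cadmium and no strain without a transporter gene was on these arrays. No source used here names the promoter of the transporter gene.

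RNA of CadA cells and RNA of D398A cells shared each of 4 two-colour arrays. On arrays 1 and 3 CadA RNA carried Cy5 and D398A RNA Cy3, and on arrays 2 and 4 CadA RNA carried Cy3 and D398A RNA Cy5. Each deposited value is a normalised log ratio, read here as log2. No source used here says which dye is the numerator, or whether the submitters had already turned the swapped arrays. The values are therefore given in 2 readings. In the turned reading the sign was reversed on arrays 1 and 3, which puts 1 strain on the positive side of all 4 arrays if the table holds plain dye ratios. That strain is CadA if Cy3 is the numerator and D398A if Cy5 is. In the deposited reading the signs were left as they are, which puts 1 strain on 1 side if the table had been turned before.

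Hsp70 proteins bind exposed stretches of unfolded proteins and let go of them again in a cycle driven by ATP. J-domain proteins speed ATP hydrolysis, which closes the chaperone on its client, and nucleotide exchange factors remove the ADP so that the client can leave. In the yeast ER the Hsp70 is Kar2, the counterpart of mammalian BiP, and its exchange factors are Sil1 and Lhs1, the second of which is itself a large relative of Hsp70. In the cytosol Ssa3 is a stress-inducible member of the Ssa family of Hsp70 proteins, and Fes1 is an exchange factor for that family. The genes of the ER group are known targets of the unfolded protein response, through which the kinase and nuclease Ire1 and the transcription factor Hac1 raise the folding capacity of the ER.

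Array medians lay between -0.09 and 0.02. The spread of all probes was wider on arrays 1 and 2, with SDs of 0.87 and 0.95, than on arrays 3 and 4, with SDs of 0.46 and 0.47. The number of arrays limits the precision, and it is not stated whether each array had its own cultures. The p-values therefore measure only how these arrays vary, which may be a technical spread. RNA came from whole cultures, so a change in some cells cannot be told apart from one in all cells.

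KAR2 was positive on all 4 arrays in the turned reading. Its turned log2 ratios were 0.28, 0.80, 0.85 and 2.23 on arrays 1 to 4, a mean of 1.04 ± 0.84 (SD, n = 4), or 2.06-fold if the base is 2. Array 4 gave by far the highest of them, at 4.71 SDs of that array's probes, and 99.9% of all features read lower there. On array 1 the value was only 0.32 SDs from 0. Without array 4 the mean was 0.64, and without array 1 it was 1.29.

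LHS1 had the largest mean and the widest spread of the 5 genes in turned signs before block centring. Its turned log2 ratios were -0.32, 2.91, 2.17 and 1.14 on arrays 1 to 4, with a mean of 1.47 ± 1.40 (SD, n = 4). Arrays 2, 3 and 4 were positive at 3.05, 4.72 and 2.39 of the arrays' own SDs, and array 1 was negative at -0.36 SDs. Array 3 held the most extreme reading for LHS1 relative to its array, whereas for KAR2 it was array 4.

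SIL1 was the least variable member before block centring. Turned log2 ratios of 0.45, 0.70, 0.79 and 0.22 on arrays 1 to 4 gave a mean of 0.54 ± 0.26 (SD, n = 4). All 4 arrays were positive and none stood far from the others. Leaving out any 1 array kept the mean between 0.46 and 0.65. Sil1 and Lhs1 serve the same chaperone, but LHS1 exceeded SIL1 on arrays 2, 3 and 4 and lay 0.77 below it on array 1, for a difference of 0.93 ± 1.25 (SD, n = 4).

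**Figure D1:**
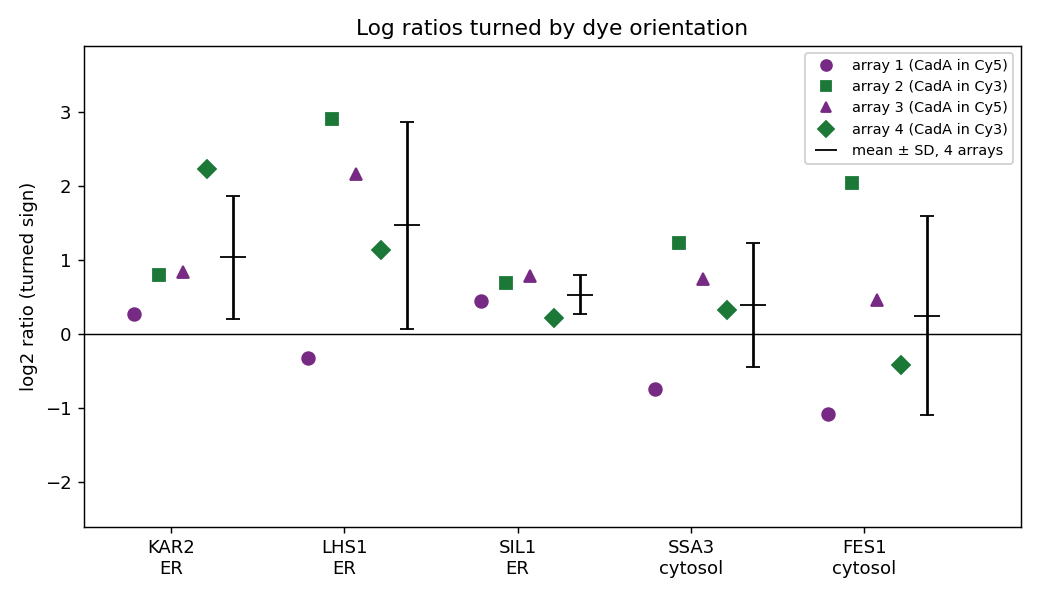
Turned log2 ratio of each gene (vertical axis) on each of the 4 arrays (symbols, coloured by dye orientation), with the mean ± SD of the arrays in black. KAR2 and SIL1 lie above 0 on all 4 arrays, LHS1 and SSA3 on 3 and FES1 on 2.

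SSA3, the cytosolic chaperone gene, had turned log2 ratios of -0.73, 1.23, 0.75 and 0.33 on arrays 1 to 4. The mean was 0.39 ± 0.84 (SD, n = 4). Array 1 alone was negative. The mean was 0.77 without array 1 and 0.11 without array 2, so either of the wide arrays moved it more than 1.5 times.

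FES1, the cytosolic exchange factor gene, had turned log2 ratios of -1.07, 2.04, 0.47 and -0.42 on arrays 1 to 4. Arrays 1 and 4 were negative and arrays 2 and 3 positive. The mean of 0.25 ± 1.35 (SD, n = 4) changed sign to -0.34 without array 2 and was 0.70 without array 1. FES1 and SSA3 shared the negative value on array 1 and their highest value on array 2, and so did the ER gene LHS1.

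Seen as deposited and before block centring, the ER genes separated the dye orientations and the cytosolic genes did not. KAR2 read 0.80 and 2.23 on the arrays with CadA in Cy3 and -0.28 and -0.85 on those with CadA in Cy5. LHS1 read 2.91 and 1.14 with CadA in Cy3 and 0.32 and -2.17 with CadA in Cy5. SIL1 read 0.70 and 0.22 with CadA in Cy3 and -0.45 and -0.79 with CadA in Cy5. In each of these 3 genes both Cy3 arrays lay above both Cy5 arrays, which was so for 11.5% of all 5946 features, while 14.2% were ordered the opposite way.

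Before block centring the cytosolic genes overlapped between the orientations. SSA3 read 1.23 and 0.33 with CadA in Cy3 and 0.73 and -0.75 with CadA in Cy5. FES1 read 2.04 and -0.42 with CadA in Cy3 and 1.07 and -0.47 with CadA in Cy5. FES1 thus followed the array pair in these values, being positive on arrays 1 and 2 and negative on arrays 3 and 4, and not the dye orientation. The median of its print block had the same signs, at 0.26, 1.43, -0.50 and -0.46. Array 4 minus array 3 was 3.30 in LHS1, 3.08 in KAR2, 1.08 in SSA3, 1.01 in SIL1 and 0.05 in FES1. With each print block centred on its own median, SSA3 read 0.91 and 0.50 with CadA in Cy3. It then read 0.48 and -0.64 with CadA in Cy5, so SSA3 narrowly separated the orientations as well. The ER gene SIL1 separated them just as narrowly, at 1.22 and -0.018 with CadA in Cy3 and -0.055 and -0.99 with CadA in Cy5. KAR2 and LHS1 still had both Cy3 arrays above both Cy5 arrays. The share of all features that separated the orientations after centring was not counted. FES1 still overlapped, at 0.61 and 0.04 with CadA in Cy3 and 0.81 and 0.03 with CadA in Cy5. It was then positive on all 4 arrays, so the change of sign between the array pairs was gone.

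**Figure D2:**
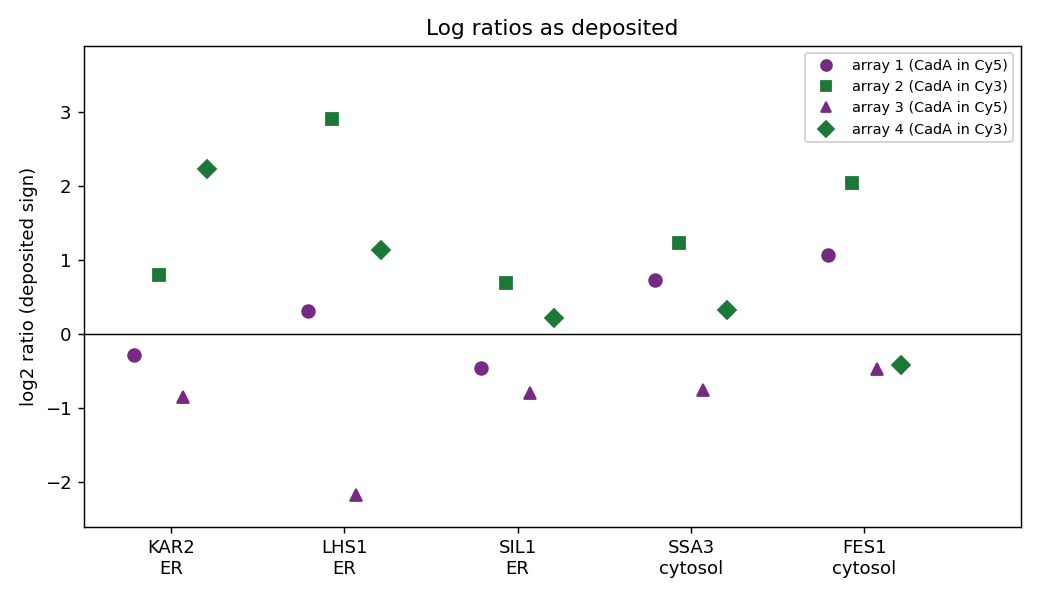
Log2 ratio as deposited (vertical axis) for each gene on each of the 4 arrays, with arrays of CadA in Cy3 in green and arrays of CadA in Cy5 in purple. Green points lie above purple ones in KAR2, LHS1 and SIL1 and mix with them in SSA3 and FES1.

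The position of a probe on the slide moved with some of these values. The probe identifiers name 48 print blocks, and the probes of LHS1 and FES1 both lie in block 45. The median of that block was 0.26, 1.43, -0.50 and -0.46 as deposited on arrays 1 to 4. On array 2 it was the third highest of the 48 block medians, and on arrays 3 and 4 it was among the 3 lowest. KAR2, SIL1 and SSA3 lie in blocks 5, 11 and 38. Their block medians ran from -0.57 to 0.32 over the 4 arrays.

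Centring each block on its own median moved LHS1 and FES1 by the same amount on each array. The turned values of FES1 became -0.81, 0.61, -0.03 and 0.04, with a mean of -0.05 ± 0.58 (SD, n = 4), so the sign of the small mean was lost. LHS1 became -0.05, 1.47, 1.67 and 1.59, with a mean of 1.17 ± 0.82. KAR2 averaged 1.18 ± 0.76 and remained positive on all 4 arrays. SIL1 averaged 0.56 ± 0.64, with -0.02 on array 4 and 0.05 on array 1, and SSA3 averaged 0.39 ± 0.60. LHS1 and FES1 can be set against each other without this step, because both carry the same block median. LHS1 minus FES1 was 0.76, 0.87, 1.70 and 1.56 in turned signs, with a mean of 1.22 ± 0.48 (SD, n = 4), positive on all 4 arrays. In deposited signs it was -0.76, 0.87, -1.70 and 1.56, with a mean of -0.009 ± 1.49.

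The ER set lay above the cytosolic set on 3 of 4 arrays in turned signs. The mean of KAR2, LHS1 and SIL1 was 0.14, 1.47, 1.27 and 1.20 on arrays 1 to 4, or 1.02 ± 0.60 (SD, n = 4). For SSA3 and FES1 together it was -0.90, 1.64, 0.61 and -0.05, or 0.32 ± 1.07. The ER mean was positive on every array and the cytosolic mean on 2. ER minus cytosol was 1.04, -0.17, 0.66 and 1.24, with a mean of 0.69 ± 0.62. Array 2 was the exception. On it the deposited block medians were 1.43 for LHS1 and FES1, 0.32 for SSA3, -0.57 for KAR2 and -0.52 for SIL1. Block 45, which stood high there, holds a gene of each set. The share of each block in this exception was not tested.

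After block centring the ER set was above the cytosolic set on all 4 arrays. The differences were 0.74, 0.60, 0.90 and 0.96, with a mean of 0.80 ± 0.16 (SD, n = 4), against an SD of 0.62 without this step. SIL1 did not share this throughout. SIL1 minus SSA3 was then 0.53, 0.31, 0.35 and -0.52, or 0.17 ± 0.47. SIL1 minus FES1 was 0.87, 0.61, 1.02 and -0.06, or 0.61 ± 0.47. In deposited signs ER minus cytosol was -1.04, -0.17, -0.66 and 1.24, a mean of -0.16 ± 1.00, and it was -0.02 ± 0.94 after block centring. These differences combine genes chosen with results of the same arrays known and are given without a test.

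Chaperones and exchange factors did not separate in either reading. KAR2 and SSA3 averaged 0.72 ± 0.66 in turned signs, and LHS1, SIL1 and FES1 averaged 0.76 ± 0.96 (SD, n = 4 each). Chaperones minus exchange factors was 0.09, -0.87, -0.34 and 0.97 on arrays 1 to 4, a mean of -0.04 ± 0.78 with 2 arrays on each side. Block centring gave 0.23 ± 0.37 in turned signs, and in deposited signs the difference was 0.09 ± 0.77. With LHS1 counted among the chaperones, as an Hsp70 relative, the mean was 0.57 in turned and 0.23 in deposited signs.

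Within the ER, KAR2 minus the mean of its exchange factors LHS1 and SIL1 was 0.21, -1.003, -0.63 and 1.56 in turned signs, or 0.03 ± 1.14 (SD, n = 4). KAR2 and SIL1 stayed within 0.17 of each other on arrays 1, 2 and 3 and differed by 2.02 on array 4. Within the cytosol, SSA3 minus FES1 was 0.34, -0.81, 0.28 and 0.75, or 0.14 ± 0.67. Block centring put SSA3 above FES1 on all 4 arrays, by 0.44 ± 0.17.

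Across compartments the pairs of like role were as variable. KAR2 minus SSA3, the difference between the Hsp70 genes, was 1.01, -0.43, 0.10 and 1.91, or 0.65 ± 1.03 (SD, n = 4). The ER exchange factors minus FES1 gave 1.14, -0.24, 1.01 and 1.10, or 0.75 ± 0.66. Array 2 was negative in both. After block centring both were positive on all 4 arrays, at 0.79 ± 0.58 for the Hsp70 genes and 0.91 ± 0.30 for the exchange factors. In deposited signs KAR2 minus SSA3 was 0.09 ± 1.27 and the ER exchange factors minus FES1 was -0.32 ± 1.03, each positive on 1 array. Block centring gave 0.25 ± 1.04 and -0.17 ± 1.08 in that reading, each positive on 2 arrays.

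**Figure D3:**
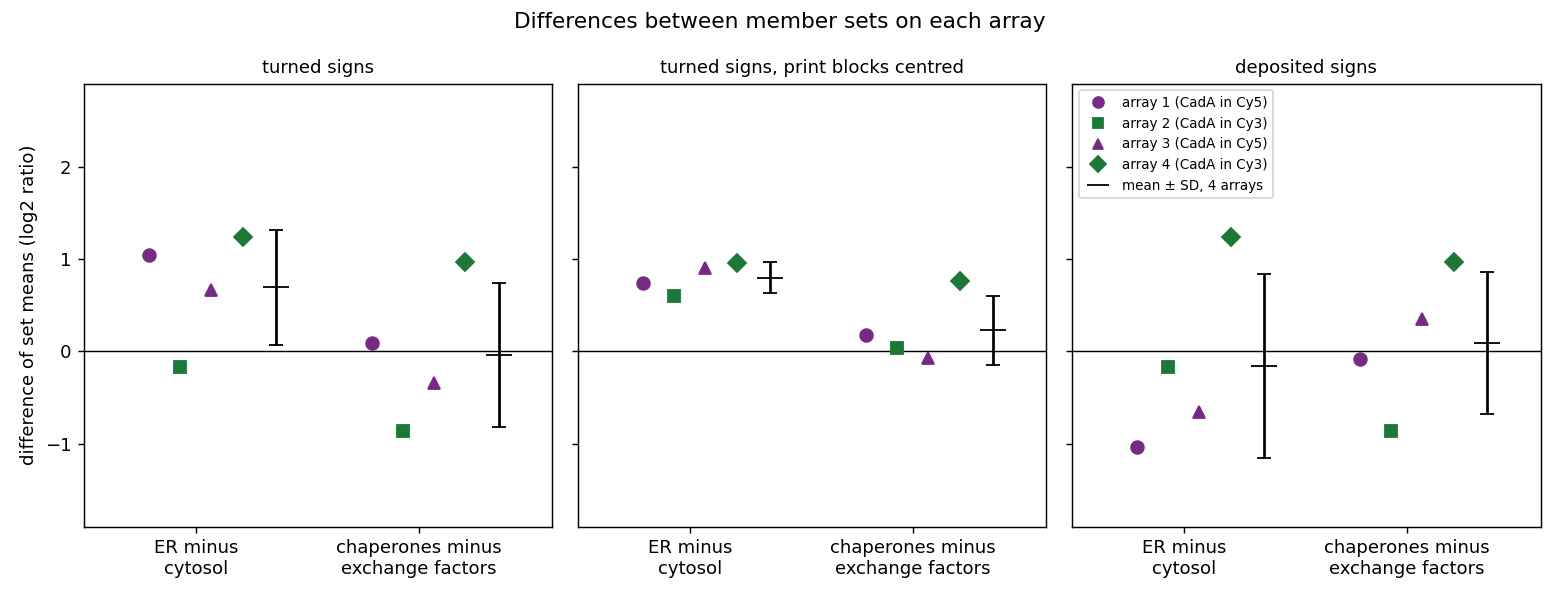
Difference of set means on each array (vertical axis, log2 ratio) for ER minus cytosol and for chaperones minus exchange factors, in turned signs, in turned signs after block centring and in deposited signs; black marks give the mean ± SD of 4 arrays. The ER minus cytosol values draw together at 0.80 ± 0.16 in the middle panel, and the chaperone differences lie on both sides of 0 in all 3 panels.

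By turned mean the order of the genes was LHS1, KAR2, SIL1, SSA3 and FES1. Neighbours in that order did not differ beyond the spread between arrays. KAR2 minus LHS1 was -0.43 ± 1.53, KAR2 minus SIL1 0.50 ± 1.02, SIL1 minus SSA3 0.15 ± 0.73 and SSA3 minus FES1 0.14 ± 0.67 (SD, n = 4 each). Among all 5946 features, ordered by turned mean from the highest, LHS1 stood 12th, KAR2 49th, SIL1 331st, SSA3 629th and FES1 1108th. Ordered by deposited mean, FES1 stood 530th, LHS1 552nd, KAR2 729th, SSA3 998th and SIL1 3257th. The middle 90% of features by turned mean lay between -0.39 and 0.56, and the median was -0.02.

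None of the 5 genes passed the threshold of 0.05 after Benjamini-Hochberg adjustment over all features in limma's test of the 4 arrays, where 0% of features passed. The adjusted p was 1.00 for each. Unadjusted limma p-values were 0.012 for LHS1, 0.015 for KAR2, 0.076 for SIL1, 0.29 for SSA3 and 0.59 for FES1. An unadjusted p below 0.05 with a positive mean was reached by 1.7% of features. The 95% interval of the mean, unadjusted, ran from 0.41 to 2.54 for LHS1, from 0.25 to 1.83 for KAR2 and from -0.07 to 1.15 for SIL1. For SSA3 it ran from -0.40 to 1.18 and for FES1 from -0.78 to 1.29, so means as large as that of KAR2 are within the intervals of both cytosolic genes. KAR2 and SIL1 were positive on all 4 arrays, as were 3.4% of features.

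On arrays 3 and 4 alone, where the spread of all probes was narrower, KAR2 averaged 1.54 and LHS1 1.65 in turned signs. Both then passed in limma over all features, with adjusted p = 0.015 for KAR2 and 0.0040 for LHS1, and 0.168% of features did. SSA3 averaged 0.54, SIL1 0.50 and FES1 0.02 on those arrays, and none of these passed. That choice of arrays was made after the data were seen. With 1 array of each orientation, these p-values draw mainly on the spread of other features. On arrays 1 and 2 alone the means were 0.54 for KAR2, 1.29 for LHS1, 0.57 for SIL1, 0.25 for SSA3 and 0.48 for FES1, and none passed. In deposited signs arrays 1 and 2 alone gave 1.61 for LHS1 (limma adjusted p = 0.080), 1.56 for FES1 (0.055), 0.98 for SSA3 (0.23), 0.26 for KAR2 (0.79) and 0.12 for SIL1 (0.91), while 3.45% of features passed.

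**Figure D4:**
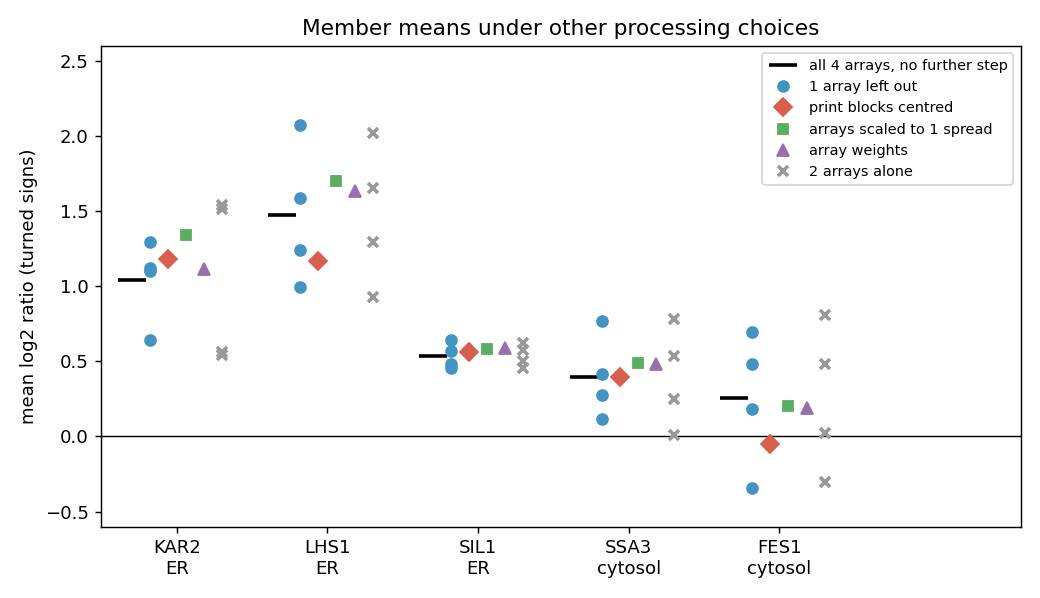
Turned mean log2 ratio of each gene (vertical axis) with all 4 arrays and no further step (black bar), with 1 array left out, after block centring, after scaling of the arrays to 1 spread, with array weights and on 2 arrays alone. All points of KAR2, LHS1, SIL1 and SSA3 lie above 0, SSA3 reaching down to 0.008, and those of FES1 run from -0.34 to 0.81.

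In deposited signs the 5 means lay closer together and the compartments did not separate. FES1 averaged 0.56 ± 1.22, LHS1 0.55 ± 2.11, KAR2 0.48 ± 1.36, SSA3 0.39 ± 0.84 and SIL1 -0.08 ± 0.67 (SD, n = 4 each). Before block centring no gene had the same sign on all 4 arrays, where 12.4% of features were positive and 12.3% negative throughout. Limma's adjusted p was lowest for FES1 at 0.59 and SSA3 at 0.61, followed by KAR2 at 0.66, LHS1 at 0.73 and SIL1 at 0.92, and 0% of features passed. No member reached an unadjusted p below 0.05, the lowest being 0.24 for FES1, and 6.04% of features did so with a positive mean. The SD of KAR2, LHS1 and SIL1 was larger in deposited than in turned signs, at 1.36 against 0.84 in KAR2, 2.11 against 1.40 in LHS1 and 0.67 against 0.26 in SIL1. SSA3 had an SD of 0.84 in both readings, and FES1 had 1.22 in deposited and 1.35 in turned signs. After block centring FES1 alone of the 5 was positive on all 4 arrays in deposited signs, at 0.81, 0.61, 0.03 and 0.04. Its mean was then 0.37 ± 0.40 (limma adjusted p = 0.34). The share of all features positive throughout after that step was not counted.

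**Figure D5:**
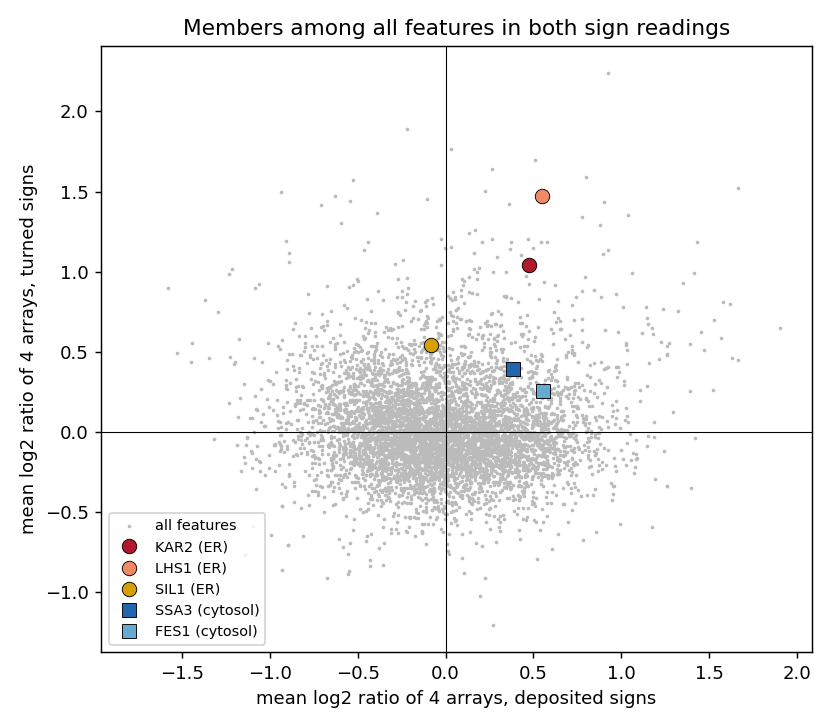
Mean log2 ratio of the 4 arrays in turned signs (vertical axis) against that in deposited signs (horizontal axis) for all 5946 features in grey, with the ER genes as circles and the cytosolic genes as squares. LHS1 at 1.47 and KAR2 at 1.04 sit near the upper edge of the cloud, and SIL1, SSA3 and FES1 lie within it.

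Other genes of the same folding machinery were read from lists drawn up from general knowledge. In turned signs 47.4% of all features had a positive mean. Of 4 J-domain partners of Kar2, only SEC63, which also takes part in protein import into the ER, had a value under its name, and it averaged 0.21 ± 0.31 (SD, n = 4). Of 11 ER folding enzymes and lectins 6 were measured, 5 with a positive and 1 with a negative turned mean (median 0.19). The 3 with the largest absolute turned means were the prolyl isomerase gene FPR2 at 1.70 ± 1.33 and the disulphide isomerase relatives MPD1 and MPD2. MPD1 and MPD2 averaged 1.45 ± 0.75 and 0.30 ± 0.25. All 3 were positive on every array, as were 3.4% of features. The other 3 lay nearer to 0, with EPS1 at 0.07 ± 0.86, CNE1 at 0.002 ± 0.59 and CPR5 at -0.16 ± 0.21, and none of these kept 1 sign. In deposited signs 3 of the 6 had a positive and 3 a negative mean (median -0.03), with FPR2 at 0.51 ± 2.29, MPD1 at -0.11 ± 1.84 and MPD2 at -0.13 ± 0.40, and none kept 1 sign. IRE1, HAC1 and TRL1, the regulators of the unfolded protein response, had no value under those names.

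Medians of the cytosolic lists lay between -0.12 and 0.07 in turned signs. Of 9 other cytosolic Hsp70 and exchange factor genes 5 were measured, 3 with a positive and 2 with a negative mean (median 0.07). SNL1, whose product tethers an exchange factor domain to the ER membrane on its cytosolic face, averaged -0.27 ± 0.14. Its 4 values were all negative, a pattern shared by 3.58% of features. SSE2, an Hsp110 exchange factor gene, averaged 0.23 ± 0.86 and the Hsp70 gene SSA2 0.12 ± 0.72. In deposited signs SSE2 read 0.52, 0.82, 0.48 and 1.11 on arrays 1 to 4, or 0.73 ± 0.29 (limma adjusted p = 0.42). All 4 of these are positive, as they were for 12.4% of features.

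Among cytosolic J-domain genes, 1 of 7 measured of 12 listed had a positive turned mean and 6 a negative one (median -0.12). XDJ1 averaged -0.40 ± 0.47, the ribosome-bound ZUO1 -0.27 ± 0.40 and JJJ1, a factor of ribosome assembly, -0.14 ± 0.26. Of 12 genes of Hsp90, Hsp104 and small heat shock proteins with their partners 8 were measured, 3 with a positive and 5 with a negative mean (median -0.05). The Hsp90 partners SBA1 and AHA1 averaged 0.31 ± 1.17 and -0.18 ± 0.29, and the small heat shock gene HSP42 averaged -0.17 ± 0.80. In deposited signs 6 of these 8 had a positive mean (median 0.23), against 46.5% of features. HSP82, HSP26 and CPR7, named after their values were seen, were positive on all 4 arrays at 0.62 ± 0.07, 0.26 ± 0.08 and 0.38 ± 0.36, as were 12.4% of features. STI1, an Hsp90 and Hsp70 partner named in the same way, was negative on all 4 arrays at -0.90 ± 0.41, as were 12.3%. In limma, 0 genes of these lists passed over all features in either reading.

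The genes most like each member over the 4 arrays were found by the root mean square difference of their log2 ratios, which is the same in both readings. The values used were not block centred, and the arrays were not scaled to 1 spread. Out of 3099 named genes, those nearest to KAR2 were ECM27 at 0.36, YNR065C at 0.37, AMS1 at 0.45, ERV29 at 0.47 and PMT1 at 0.47. AMS1 codes for a vacuolar mannosidase, ERV29 for a cargo receptor of ER vesicles and PMT1 for a mannosyltransferase of the ER. All 5 read at least 1.56 as deposited on array 4, where KAR2 read 2.23. Of the other members SIL1 was the 96th nearest to KAR2, at 1.01, and SSA3 was the 195th at 1.10. LHS1 stood 1461st at 1.39 and FES1 2530th at 1.63.

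Other members had nearest genes at other distances. LHS1 had none close to it, with the seripauperin gene PAU5 at 0.67 and the vesicle coat gene SEC31 at 0.81. SIL1 was nearest to the glucose sensor gene RGT2 at 0.17 and the ER mannosyltransferase gene ALG3 at 0.19. For SSA3 the nearest were COS6 at 0.11 and GUP1 at 0.16, and for FES1 they were SEC11, a signal peptidase gene, at 0.15 and FIP1, of messenger RNA polyadenylation, at 0.17. The cytosolic pair stood 0.59 apart, which made SSA3 the 142nd nearest gene to FES1. Before block centring, likeness did not follow the compartments throughout. The member nearest to LHS1 was SSA3, as its 42nd gene, followed by FES1 as the 79th, KAR2 as the 141st and SIL1 as the 178th. The member nearest to SIL1 was also SSA3, as its 618th gene, with FES1 2552nd, KAR2 2374th and LHS1 2981st. These ranks were not drawn up again after block centring, which can change them. In turned signs that step took KAR2 minus LHS1 from -0.43 ± 1.53 to 0.01 ± 0.55. It took LHS1 minus SIL1 from 0.93 ± 1.25 to 0.61 ± 0.74 and left LHS1 minus FES1 at 1.22 ± 0.48.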

How the data were processed

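The authors deposited 1 normalised log ratio per probe and array, made with limma 3.2.1 per the submitters' processing notes and taken here as log2, the scale on which limma works. No source used here gives the background correction, the normalisation method or the numerator dye, and no scanner intensities were used. Probe names came from GEO's platform annotation, and gene identifiers linked them to current symbols in RefSeq's R64 table; 3344 of 6216 probes had 1 symbol, 387 had several and 2485 had none, and 3343 of the 3344 matched. Probes of 1 gene were averaged, which gave 5946 features with values on at least 3 arrays. The sign was reversed on arrays with CadA in Cy5 for the turned reading. Each mean was set against 0 in a two-sided moderated test (limma 3.58.1 under R 4.3.3, functions lmFit and eBayes). Adjustment over all features followed Benjamini and Hochberg, with a threshold of 0.05; the code was tested on simulated data. Set differences were taken per array and not tested. The genes and lists were chosen with earlier results of these data known. All 5 genes were named, with the 3 largest absolute turned means of each list and the genes nearest in root mean square difference (5 for KAR2, 2 for the others). Alternatives were leaving out arrays, scaling arrays to 1 spread, centring print blocks, array weights, a strain and a dye coefficient together, single probes and, added after the data were seen, arrays 1 and 2 or 3 and 4 alone and leaving out each gene from the ER and cytosol difference.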

Additional observations from a re-analysis of the deposited data

How the results depend on the processing

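In turned signs the number of features past the threshold was 0 with 4 arrays, 0 to 1 with 1 array left out, 4 with array weights and 10 on arrays 3 and 4 alone, and those 10 included KAR2 at 1.54 and LHS1 at 1.65. In deposited signs it was 0 with 4 arrays or with 1 left out and 205 on arrays 1 and 2 alone, none of them one of the 5 genes. FES1 came nearest there at 1.56 (limma adjusted p = 0.055), and LHS1 was at 1.61 (0.080). An unadjusted limma p below 0.05 was reached by 112 features in turned and 695 in deposited signs. KAR2, LHS1, SIL1 and SSA3 kept a positive turned mean under all 14 alternatives tried for each. Some of these could not move the mean of a gene with 1 probe valued on all 4 arrays. They were single probes, a need for values on all 4 arrays, and strain and dye coefficients together. KAR2 and SIL1 were positive on every array, so leaving out, scaling or weighting arrays could not change their sign. FES1 changed sign to -0.34 without array 2, -0.048 with print blocks centred and -0.30 when only arrays 1 and 3 were used, and was 0.70 without array 1. In deposited signs the signs were less stable. KAR2 was -0.11 without array 4 and 0.92 without array 3. LHS1 was -0.24 without array 2, 1.45 without array 3, -0.49 with array weights and -0.52 on arrays 3 and 4 alone. SIL1 was 0.04 without array 1, 0.15 without array 3, 0.038 with print blocks centred and 0.12 on arrays 1 and 2 alone. SSA3 was -0.11 with array weights and -0.21 on arrays 3 and 4 alone, and FES1 was -0.12 and -0.45 under the same settings. By construction, deposited means on 1 orientation alone are 1 side of the dye swap: with CadA in Cy5 they were -0.56 for KAR2, -0.93 for LHS1 and -0.008 for SSA3, and SIL1 was 0.46 with CadA in Cy3. The causes of the other changes were not tested. ER minus cytosol in turned signs stayed positive under all 15 alternatives, between 0.44 and 0.98, and in deposited signs it ran from -0.85 to 0.54. Chaperones minus exchange factors ran from -0.39 to 0.57 in turned signs and from -0.48 to 0.66 in deposited signs. How far each spot stood above background is not known here, so a dim spot cannot be told from a bright one.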

Other observations

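The mitochondrial Hsp70 system was measured through 5 of 8 listed genes, 3 with a positive and 2 with a negative mean in turned signs (median 0.05). MGE1, the exchange factor of mitochondrial Hsp70, had turned log2 ratios of 0.93, 4.58, -0.12 and -0.24 on arrays 1 to 4, or 1.29 ± 2.26 (SD, n = 4), so array 2 stood far above the others. The J-domain genes PAM18 and JAC1 averaged -0.25 ± 0.73 and -0.15 ± 0.44. In deposited signs 2 of the 5 had a positive and 3 a negative mean (median -0.17). SSC1, the mitochondrial Hsp70 gene itself, named after its values were seen, read 2.29, 2.35, 0.06 and 0.49 as deposited and was positive on all 4 arrays, as were 12.4% of features. The J-domain gene MDJ2, named in the same way, was negative on all 4 arrays at -0.33 ± 0.21, as were 12.3%. MGE1 and SSC1 lie in print block 48, which had the highest block median of array 2 at 1.83.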
